A study of Mus musculus with 24 samples.

Results

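Lens wear of either power was compared with no lens in each of 8 mouse tissues, to find miRNAs that changed in both lens groups and in all tissues. All 24 arrays of the series were used, with 1 array for each tissue in each of 3 groups. The normal group, which the labels call Control, wore no lens and gave 8 arrays. The 0 D lens group gave 8 arrays, and the Lens-induced group, which wore a −30 D lens, gave the remaining 8. All mice were C57BL/6J. For the eye tissues of the normal and −30 D groups, the methods of the study describe male mice, a lens fixed on the right eye at 3 weeks of age and worn for 3 weeks, and RNA of 3 mice mixed in equal amounts for each array. The age, duration, eye and pooling of the 0 D group were not given in the sources used here, and neither was the dissection of the tissues labelled SCN and LGN. The other tissues were cornea, iris, crystalline lens, retina, RPE/choroid (labelled Choroid) and sclera.

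A miRNA is a short RNA that guides the silencing machinery to messenger RNAs, and its seed, bases 2 to 8, does most of the target pairing. One miRNA can lower many proteins slightly. In the eye, retina, lens and cornea each have their own leading miRNAs, so that a tissue can be recognized from its miRNA signals. A strong minus lens moves the focal plane behind the retina, and the young eye responds by growing longer. A 0 D lens covers the eye but leaves the focus in place, so that a difference shared by both lens groups addresses lens wear rather than defocus.

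No miRNA passed the test for a change with lens wear. Of 197 miRNAs tested, 0 had an adjusted p under 0.05 (0% called), in limma on the 8 differences per miRNA with Benjamini-Hochberg adjustment, and 17 (8.63%) had an unadjusted p under 0.05. The differences were small in size. The mean over tissues ran from −0.39 for miR-128-3p to 0.48 for miR-3082-5p on the log2 scale, with a median of −0.01 and a median SE of 0.068. Of the 197 means, 91 were above 0 and 106 were below. The 95% interval of the mean difference lay within 2-fold in either direction for 195 of the miRNAs. Of the 197, 118 were not detected on every array, and a tissue with all its arrays at the floor counts as a difference of 0. Such values pull the mean towards 0 and can narrow the interval. For these miRNAs the interval does not exclude a larger change in the tissues where they were detected. Each difference was the mean log2 signal of both lens arrays minus that of the normal array of the same tissue. Signals were background-subtracted intensities, scaled so that the 79 miRNAs found on every array had an equal 75th percentile, and values not detected or below 9.93 were set to 9.93. No separate mice stand behind the 8 differences, since the tissues of a group lay on 1 slide and may have come from the same animals. The p-values measure how steady a difference was over tissues and not over mice, and the effects of slide and of lens wear cannot be told apart.

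The sequences of the miRNAs nearest to the threshold are shown because 2 of them share a seed. They are mature sequences of RefSeq on GRCm38.p6, 5′ to 3′, with the seed in capitals. RefSeq matched 169 of the 197 tested miRNAs by name. The first 8 had the smallest p-values among lower means:
miR-423-5p: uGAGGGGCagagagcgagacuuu
miR-193b-3p: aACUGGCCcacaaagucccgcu
miR-193a-3p: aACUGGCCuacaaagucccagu
miR-154-5p: uAGGUUAUccguguugccuucg
miR-300-3p: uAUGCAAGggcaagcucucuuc
miR-129-5p: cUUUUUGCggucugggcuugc
miR-6368: cUGGGAAGcaguggaggggag
miR-331-3p: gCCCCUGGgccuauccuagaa
The following 5 of the 8 with the smallest p-values among higher means were matched:
miR-574-5p: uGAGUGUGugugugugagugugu
miR-30c-5p: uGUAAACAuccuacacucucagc
miR-3963: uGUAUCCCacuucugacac
miR-6904-5p: uCCUGGGGuuagaguugagugg
miR-350-3p: uUCACAAAgcccauacacuuuc
The other 3 of that direction were miR-709, miR-1a-3p and miR-466i-5p. Mir423 lies on chromosome 11 (mature sequence chr11:77078122-77078144, minus strand) within the span of the protein-coding gene Nsrp1. Mir193b lies at chr16:13449570-13449591, plus strand, within long noncoding transcripts, and Mir193a at chr11:79712009-79712030, plus strand, outside any annotated protein-coding gene or long noncoding RNA. Mir300 and Mir154 lie in the imprinted miRNA cluster of chromosome 12, at chr12:109724363-109724384 and chr12:109738438-109738459, plus strand, and the second of them is within the noncoding gene Mirg. Mir574 lies at chr5:64970328-64970350, plus strand, within the spans of Fam114a1 and Tlr6.

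The lowest p-value of the whole comparison belonged to miR-423-5p, a widely expressed miRNA. Its scaled signal on the normal arrays was 23.0 in cornea, 18.1 in iris, 29.1 in crystalline lens, 42.8 in retina, 22.2 in RPE/choroid, 21.3 in sclera, 20.7 in SCN and 17.6 in LGN. On the 0 D arrays it was 18.6, 14.2, 20.3, 35.3, 21.9, 19.3, 11.98 and 13.7 in the same order, and on the −30 D arrays 20.7, 17.3, 26.4, 36.7, 21.1, 18.3, 17.5 and 19.4. In 15 of the 16 pairs of a lens array and its normal array the lens array was lower, and the exception was the −30 D LGN. Both pairs of a tissue share its normal array and are not separate observations. The mean difference was −0.23 ± 0.049 (SE, n = 8 tissues), with a 95% interval from −0.35 to −0.12 and a limma adjusted p of 0.266. It was lower in 8 of 8 tissues, from −0.0442 in RPE/choroid to −0.51 in SCN. Of the 79 miRNAs detected on all arrays, only miR-423-5p had 1 sign in every tissue. A miRNA at the floor on all arrays of a tissue could not meet this. The groups overlapped, since tissues differed from each other by more than lens wear differed from normal. The error of a single signal, from 1.60 for the 0 D iris to 5.35 for the normal crystalline lens, was as large as many of these differences. Scaling by the median of ratios instead gave −0.25 and an adjusted p of 0.0194, and scaling by the 75th percentile of all spots turned the mean to 0.0922 with an adjusted p of 0.666. That last scaling moved the median of all 197 differences from −0.01 to 0.12, so that miR-423-5p stayed below it.

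**Figure D1:**
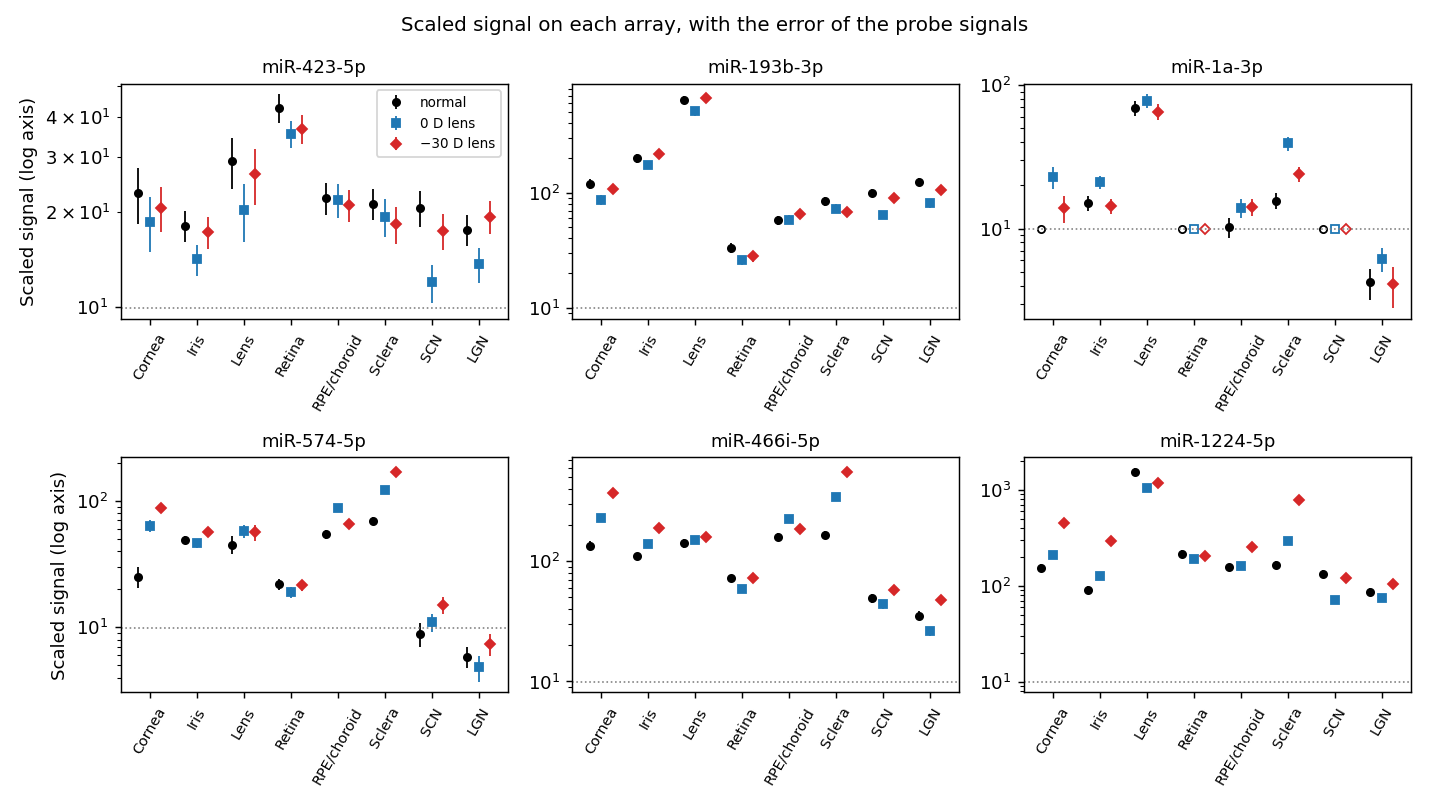
Scaled signal (log axis, no unit) of 6 miRNAs on the 24 arrays by tissue. Points are single arrays, bars are the error of the probe signals on that array, open points are arrays without detection, and the dotted line is the floor of 9.93. For miR-423-5p the black normal point is the highest of the 3 in 7 of 8 tissues, while for miR-574-5p and miR-466i-5p the lens arrays stand above normal most clearly in cornea and sclera.

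miR-193b-3p and miR-193a-3p, which share the seed ACUGGCC, were both among the 8 lower miRNAs, although their means turned to 0.058 and 0.0083 with scaling by the 75th percentile of all spots, below the median of all miRNAs of 0.12. The normal signal of miR-193b-3p ranged from 33.3 in retina to 644 in crystalline lens with a median of 110 over the 8 arrays. In the 0 D group it ranged from 26.0 to 510 with a median of 76.8, and in the −30 D group from 27.9 to 661 with a median of 98.3. Its difference was −0.22 ± 0.062 (SE, n = 8) and was below 0 in 7 of 8 tissues, with RPE/choroid the exception at 0.10. The limma adjusted p was 0.536. miR-193a-3p was much dimmer, with medians of 13.8, 11.4 and 10.4 in the normal, 0 D and −30 D groups, and had a difference of −0.15 ± 0.060 with the same adjusted p. It was lower in 5 tissues and at the floor on all arrays of the other 3. Below the floor it was detected and higher with lens wear in iris and LGN. In the order normal, 0 D and −30 D it read 3.28, 3.75 and 4.20 in iris and 5.64, 6.30 and 7.23 in LGN. The SCN difference of miR-193a-3p, −0.54, stood far below the rest, which lay between −0.17 and 0. Near-identical sequences can bind each other's probes, so that the pair is not separate observations.

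Of the other 5 lower miRNAs, 3 are known from neurons. miR-154-5p and miR-300-3p belong to the imprinted cluster of chromosome 12 and are abundant in brain, and miR-129-5p is enriched in neurons. miR-154-5p had a difference of −0.19, lower in 6 tissues and at the floor in iris and crystalline lens. miR-300-3p had −0.12 and was lower in the 5 tissues where it was above the floor on any array. miR-129-5p had −0.18 and was above the floor in 4 tissues, with −0.28 in retina, −0.53 in RPE/choroid, −0.38 in SCN and −0.26 in LGN. All 4 were lower on both lens arrays, so that 8 of 8 informative pairs had 1 sign. Both pairs of a tissue share its normal array, so that these are not 8 separate comparisons. The remaining miRNAs were miR-6368 with −0.14 and miR-331-3p with −0.10, both detected on all arrays and lower in 7 of 8 tissues, but they turned to 0.17 and 0.16 with the scaling on all spots, and miR-331-3p also to 0.03 without scaling.

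Among the higher miRNAs, the largest means came from cornea and sclera. miR-574-5p, whose sequence is mostly alternating U and G, had normal signals of 25.0 in cornea and 69.7 in sclera. Its 0 D signals there were 63.4 and 122, and its −30 D signals 88.0 and 169. The differences were 1.58 in cornea and 1.04 in sclera, but −0.12 in retina, and the mean of 0.47 ± 0.188 (SE, n = 8) had an adjusted p of 0.536 in limma. miR-466i-5p, from the repeat-rich cluster in an intron of Sfmbt2, followed a like course. It read 135 in the normal cornea against 232 with 0 D and 371 with −30 D, and 166 in the normal sclera against 343 and 557. In retina it read 72.2, 58.7 and 73.2, a difference of −0.14, and the mean over tissues was 0.43 ± 0.183. miR-6904-5p had a mean of 0.31 that came from the −30 D arrays alone: the 0 D mean was −0.01 and the −30 D mean 0.63, with 1.94 in cornea and 1.79 in sclera.

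Of the other 5 higher miRNAs, miR-709 was higher in the most tissues. It had 0.19 ± 0.072 (SE, n = 8) and was higher in 7 of 8 tissues and in 14 of 16 pairs, with cornea the exception at −0.16. Its signals ranged from 140 to 453 in normal arrays, with a median of 339, from 149 to 691 with a median of 381 in the 0 D group, and from 143 to 567 with a median of 360 in the −30 D group. miR-30c-5p, a member of the broadly expressed miR-30 family, had 0.17 ± 0.065 and was higher in 6 of 8 tissues. miR-3963 had 0.17, and miR-350-3p had 0.12, with 0.25 in the 0 D group and −0.01 in the −30 D group. miR-1a-3p, which defines heart and skeletal muscle, had 0.32 and was higher in the 5 tissues where it was above the floor in any group. With the totals that the scanner files print in place of the probe sums, miR-574-5p turned to −0.24, miR-350-3p to −0.21 and miR-30c-5p to −0.0298. With normexp background correction miR-1a-3p turned to −0.0131. Of the 16 leading miRNAs, 12 had signal above 3 errors from both of their probes on all 3 arrays of at least 1 tissue, and in those 12 both probes had the same mean sign, with 1 tissue behind a probe of miR-350-3p. For miR-423-5p, miR-193a-3p, miR-1a-3p and miR-6904-5p only 1 probe met this, so that its sign could not be set against a second probe. The same probes make up the summed signal by which the 16 were picked, so that a shared sign is no separate support.

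**Figure D2:**
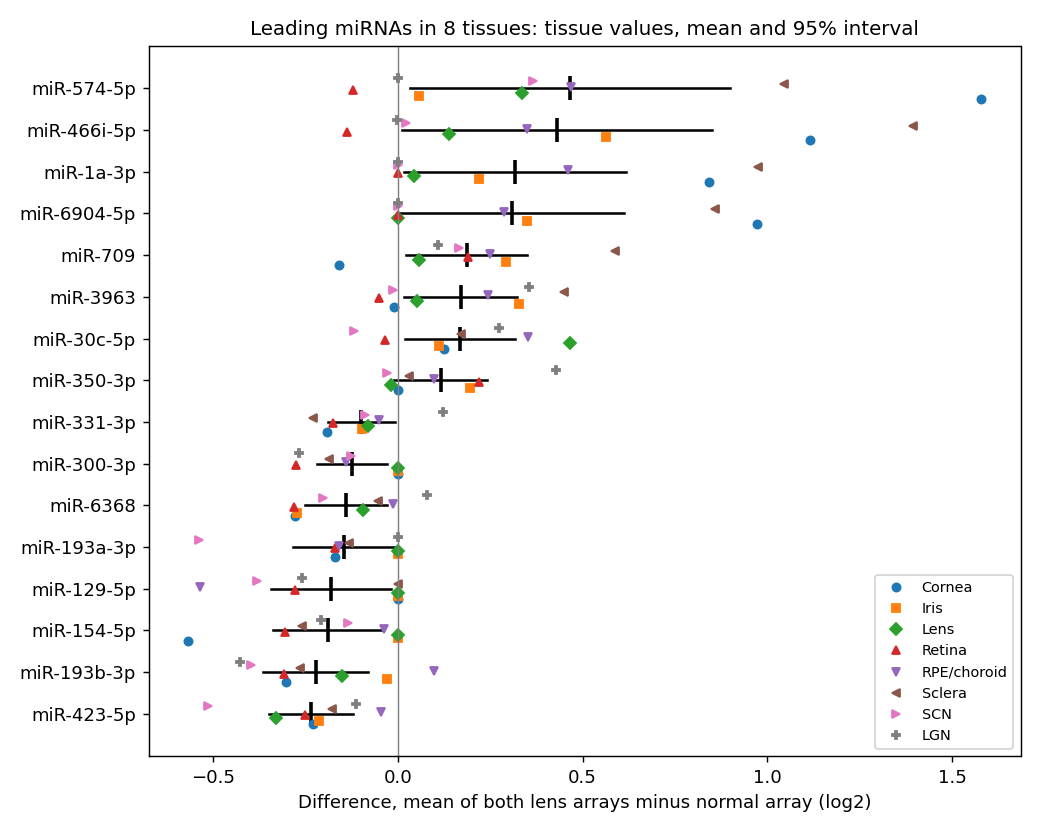
Difference between lens wear and normal (log2, mean of both lens arrays minus the normal array) for the 8 higher and 8 lower miRNAs with the smallest p-values. Symbols are the 8 tissues, the upright bar is the mean and the horizontal line its 95% interval. miR-423-5p lies below 0 in every tissue, while the wide intervals at the top come from cornea, at up to 1.58, and sclera.

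Each lens group was also compared with normal on its own. In the 0 D group 1 of 196 miRNAs (0.51%) passed the test against normal, and 32 (16.3%) had an unadjusted p under 0.05. In the −30 D group 0 of 195 passed (0%), with a smallest limma adjusted p of 0.562, and 15 (7.69%) had an unadjusted p under 0.05. No miRNA passed in both. Both comparisons used the same 8 normal arrays. The 1 miRNA called was miR-99a-5p, a member of the miR-99/100 family with the sequence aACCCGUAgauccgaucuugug (Mir99a, chr16:77598940-77598961, plus strand). Its normal signals were 93.6 in cornea, 325 in iris, 226 in crystalline lens, 270 in retina, 501 in RPE/choroid, 432 in sclera, 329 in SCN and 198 in LGN. With 0 D they were 79.7, 291, 181, 223, 443, 351, 230 and 171, lower in 8 of 8 tissues, and the difference was −0.27 ± 0.043 (SE, n = 8) with an adjusted p of 0.0301. With −30 D they were 126, 334, 223, 227, 559, 342, 296 and 231, and the difference was 0.01 ± 0.086. No miRNA was called for 0 D when cornea, iris, crystalline lens, retina, sclera or LGN was left out. Without scaling, 14 were called and all were higher, since the median of all 0 D differences then moved to 0.17.

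miR-423-5p and miR-193b-3p had lower means in both groups, by −0.35 and −0.35 with 0 D and by −0.12 and −0.09 with −30 D, in this order of miRNAs. The direct comparison of both lens groups called neither, with limma adjusted p of 0.128 and 0.0853. That comparison called 6 of 196 miRNAs (3.06%), and 43 (21.9%) had an unadjusted p under 0.05. miR-29b-3p, of the miR-29 family known to target collagen messages, was lower with −30 D by −0.40 ± 0.060 (SE, n = 8) with an adjusted p of 0.0169. Its signal was lower on the −30 D array in 8 of 8 tissues, for example 93.4 against 141 in cornea and 90.1 against 141 in sclera, with normal signals of 111 and 125. The mean of both lens groups was thereby 0.02 above normal. Higher with −30 D, at an adjusted p of 0.0315 each, were miR-1224-5p by 0.74, miR-8110 by 0.43, miR-5126 by 0.35, miR-3960 by 0.35 and miR-151-5p by 0.23. miR-1224-5p, made from a short intron of Vwa5b2 by splicing, read 454 in the −30 D cornea, 207 in the 0 D cornea and 155 in the normal cornea, and 792, 291 and 165 in sclera. Without scaling miR-151-5p had −0.0013, and with the printed total miR-29b-3p had 0.12. The count of 6 became 36 without scaling and 15 with normexp, 0 without cornea or without iris, and 1 without SCN or without LGN. The slides of the lens groups were scanned on different days, and the part of slide and scan in these calls was not tested.

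Base composition moved with the same contrast. Over 169 miRNAs with a sequence, the difference between −30 D and 0 D had r = 0.37 with G+C content, and r = 0.62 over the 68 of them detected on all arrays, while lens wear against normal had r = −0.06 and −0.19 over the same sets. By tissue, lens wear against normal ran from r = −0.43 in crystalline lens to 0.37 in sclera over the 169. These correlations are descriptions across miRNAs that share arrays. miR-5126 (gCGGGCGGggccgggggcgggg) consists of G and C alone, and miR-8110 (aAGCGUGGauugggggggggg) ends in a run of G. The 25 miRNAs with a G+C content of at least 65%, a limit set after the leading miRNAs were seen, differed between tissues. For lens wear against normal their median was 0.51 in sclera and −0.31 in crystalline lens, beside −0.05 and 0 for the other 144. In each of the remaining 6 tissues their median was 0, and members at the floor count as 0. Over the 9 of them detected on all arrays the medians were 0.54 in sclera, 0.22 in iris, 0.12 in cornea and 0.04 in LGN. In the other tissues these medians were 0 in RPE/choroid, −0.15 in crystalline lens, −0.21 in retina and −0.47 in SCN. Detected signals below 9.93 were also set to the floor, so that members of these 9 can count as 0 too. In RPE/choroid 4 of the 9 were higher and 3 lower. Of the 25 miRNAs, 19 were higher in sclera, 12 in iris, 9 in RPE/choroid and 8 in cornea. In LGN 5 were higher, in SCN 3, in crystalline lens 2 and in retina 1. Members at the floor count as not higher, and the same count over the other 144 was not made. These counts therefore do not show how the 25 differed from the other miRNAs.

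**Figure D3:**
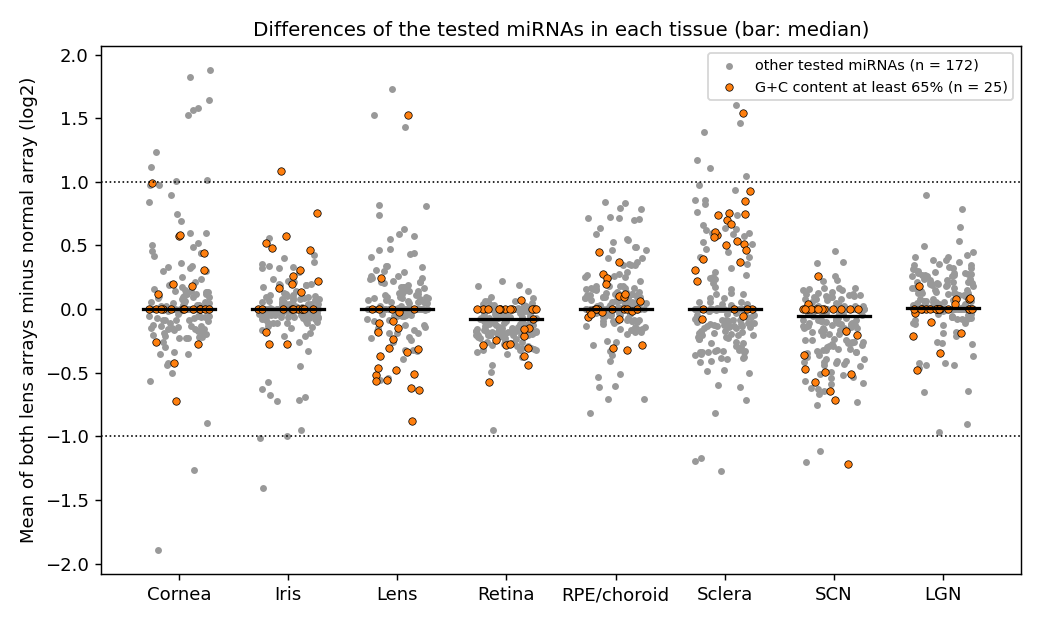
Difference between lens wear and normal (log2) of the 197 tested miRNAs in each tissue, with the median as a bar and dotted lines at 2-fold. Orange points are the 25 miRNAs with a G+C content of at least 65%, which lie mostly above 0 in sclera (median 0.51) and mostly below 0 in crystalline lens (median −0.31).

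Tissues differed in how far the lens arrays stood from normal. The SD of the 197 differences was lowest in retina (0.143) and highest in sclera (0.446) and cornea (0.445), with 0.324 in crystalline lens and 0.233 to 0.266 in iris, RPE/choroid, SCN and LGN. No miRNA differed by more than 2-fold in retina, RPE/choroid or LGN. In cornea 10 miRNAs were more than 2-fold higher and 2 more than 2-fold lower, and in sclera 7 and 3. For crystalline lens the counts were 4 and 0, for iris 1 and 2, and for SCN 0 and 3. With 1 array a group in each tissue there was no test within a tissue. Every one of the 24 arrays was nearest to another array of its own tissue, with correlations of 0.967 to 0.998 between groups within a tissue.

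Summed signals of miRNAs known to mark cell types were followed in each tissue, and several differed between groups. The epithelial markers miR-205-5p, miR-203-3p and miR-184-3p summed to 30889 to 38018 in cornea. Most of that sum was miR-184-3p, with 36854 of 38018 in the normal cornea, and this miRNA also read 16120 in the normal crystalline lens. Neuronal markers summed to 2017 to 3262 in SCN and LGN. Muscle markers were highest in crystalline lens, at 686 to 757. The retina markers, the miR-183/96/182 cluster of photoreceptors, summed to 16170 in the normal retina and to 15236 and 14498 in the 0 D and −30 D retina. In the crystalline lens, where they are not expected, they summed to 131, 318 and 427, with miR-182-5p not detected in any group. In RPE/choroid the sum was lower with lens wear, at 1436, 1007 and 813, and in sclera it was 1094, 441 and 524. In bulk tissue, fewer cells of a type and less RNA per cell cannot be told apart. The sums of the neuronal markers miR-124-3p, miR-9-5p and miR-128-3p differed the same way there. They were 120, 325 and 390 in crystalline lens, 1011, 741 and 586 in RPE/choroid and 596, 346 and 327 in sclera. Most of each sum was miR-124-3p, with 105, 309 and 390 in crystalline lens, where miR-9-5p was not detected. miR-128-3p read 14.7 and 15.5 in the normal and 0 D crystalline lens and was not detected with −30 D. Neuronal sums were higher with lens wear in LGN (2701, 3262 and 3130) and cornea (20.2, 37.3 and 24.3). They were lower in iris (61.4, 20.4 and 34.7), SCN (2400, 2044.5 and 2017) and retina (11550, 10591 and 10323). Muscle markers were higher with lens wear in sclera and RPE/choroid, where retina markers were lower, with 153, 330 and 254 in sclera and 83.9, 131 and 132 in RPE/choroid. In retina both marker sums were slightly lower, with 14.6, 13.4 and 12.7 for muscle. Muscle sums also differed in cornea (73.3, 118 and 96.0), and were low in SCN (22.2, 4.26 and 4.84). Signals in these sums were not set to the floor. In retina, and on the lens arrays of SCN, each muscle signal lay below 9.93. The part of these marker shifts in the differences was not tested.

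**Figure D4:**
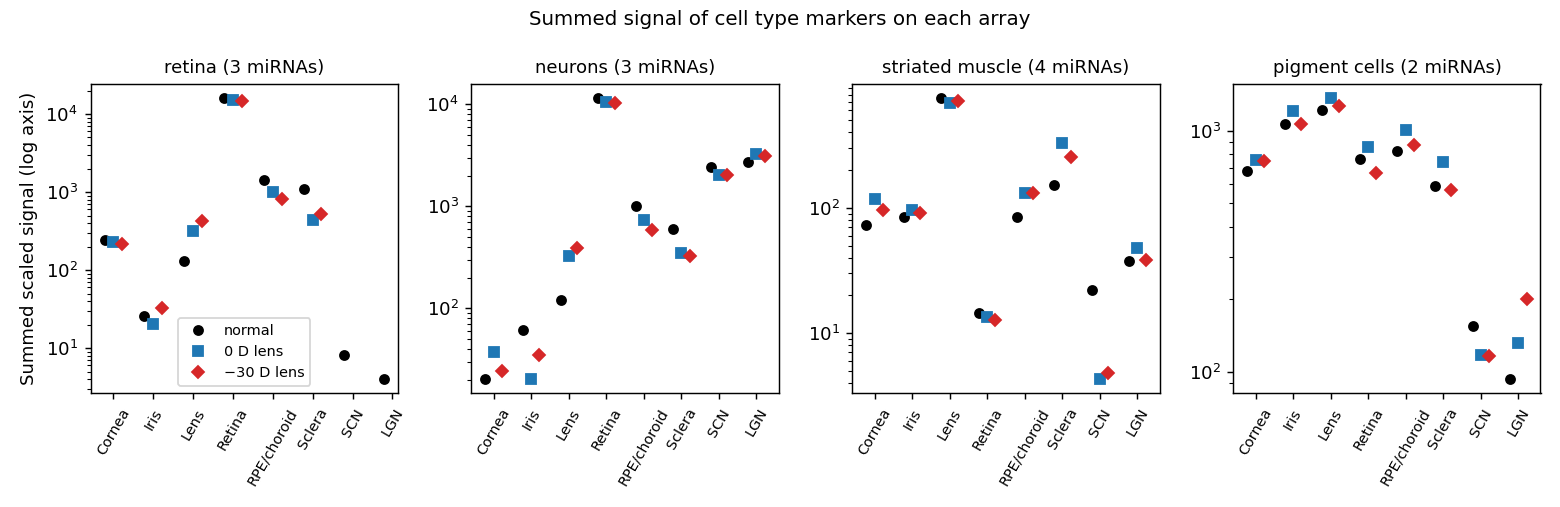
Summed scaled signal (log axis, no unit) of the marker miRNAs of 4 cell types on each array by tissue, black for normal, blue for 0 D and red for −30 D. Sums of 0 are not drawn, which leaves out the lens arrays of SCN and LGN for the retina markers. The retina markers read 131 (normal) to 427 (−30 D) in crystalline lens and 1094 (normal) to 441 (0 D) in sclera, and 14498 to 16170 in retina itself.

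The same miRNAs appear in the test over tissues as follows, and no list held a miRNA past the threshold. All 3 retina miRNAs had means below 0 (1 of 3 with the scaling on all spots, where all 3 lay below the median of all miRNAs), at −0.33 for miR-182-5p, −0.07 for miR-96-5p and −0.07 for miR-183-5p, with 1.52 in crystalline lens and −1.19 in sclera for the last. Of 8 neuronal miRNAs tested, 7 had a mean below 0 and 1 above, with a median of −0.05 beside −0.01 for all tested miRNAs, and 4 of the 8 were above 0 without scaling or with the scaling on all spots, where 3 and 1 lay above the median of all miRNAs. The lowest mean of all 197, −0.39 ± 0.171 (SE, n = 8) for miR-128-3p, came mostly from iris at −1.41, RPE/choroid at −0.81 and SCN at −0.62. In LGN, where this neuronal miRNA was brightest, its signals were 1013, 1073 and 1026 in the normal, 0 D and −30 D groups, which differed by less than 2-fold in any pair. The 3 muscle miRNAs tested, miR-1a-3p, miR-133b-3p and miR-133a-3p, had means of 0.32, 0.24 and 0.23, with 0.86 to 0.97 in sclera, and were above 0 under all 6 scalings. miR-204-5p and miR-211-5p, listed for pigmented cells, had 0.11 each and were also above 0 under all 6. Of these, miR-204-5p was brightest in crystalline lens, with 1198 on the normal array beside 288 in iris. The smooth muscle pair and the epithelial miR-200 family had no member detected on 12 arrays and were not tested.

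Lists chosen for matrix, low oxygen, inflammation and neuronal activity also held no miRNA past the threshold. Without scaling and with the scaling on all spots, the median of all miRNAs moved to 0.08 and 0.12, so that for these settings members were counted against that median. miR-29a-3p and miR-29c-3p, with the seed of miR-29b-3p, had means of −0.09 and −0.07, and of the 6 matrix miRNAs tested 2 were above 0 and 4 below, with 3 and 5 above the moved medians. miR-210-3p, the classical miRNA of low oxygen, had −0.25 ± 0.148 with an adjusted p of 0.588 in limma, and was lower in 6 of 8 tissues, but its mean turned to 0.15 with the scaling on all spots. Its signals were 676, 514 and 560 in retina in the order normal, 0 D and −30 D, and 24.3, 9.27 and 12.7 in SCN, where it differed most. Of 3 inflammation-linked miRNAs 1 had a mean above 0, which was miR-21a-5p with 0.12, and 2 had a mean below 0, with 2 of the 3 above each moved median. Both miRNAs of neuronal activity that were tested, among them miR-132-3p with −0.06, lay below 0, with 1 and 0 above the moved medians.

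Seed families had small differences. The 9 let-7 members ran from −0.08 to 0.08, with 3 above 0 and 6 below, and 5 and 8 lay above the moved medians. The 6 tested miRNAs with the seed AGCAGCA, among them miR-16-5p and miR-15a-5p, were all below 0, between −0.08 and −0.06. They were above 0 under those same alternatives, where 6 of 6 without scaling and 4 of 6 with the scaling on all spots lay below the moved median. miR-99a-5p, miR-99b-5p and miR-100-5p, with the seed ACCCGUA, were all below 0, between −0.13 and −0.05, and 3 and 2 of them lay below the moved medians, although 2 and 3 were then above 0. The 7 listed members of the miR-30 family include the arms miR-30a-3p and miR-30e-3p, whose seed UUUCAGU differs from that of the 5p arms. Of these 7 means, 5 were above 0 and 2 below, with a median of 0.07, and 7 and 5 lay above the moved medians. Members with near-identical sequences can bind each other's probes, so that they are not separate observations.

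**Figure D5:**
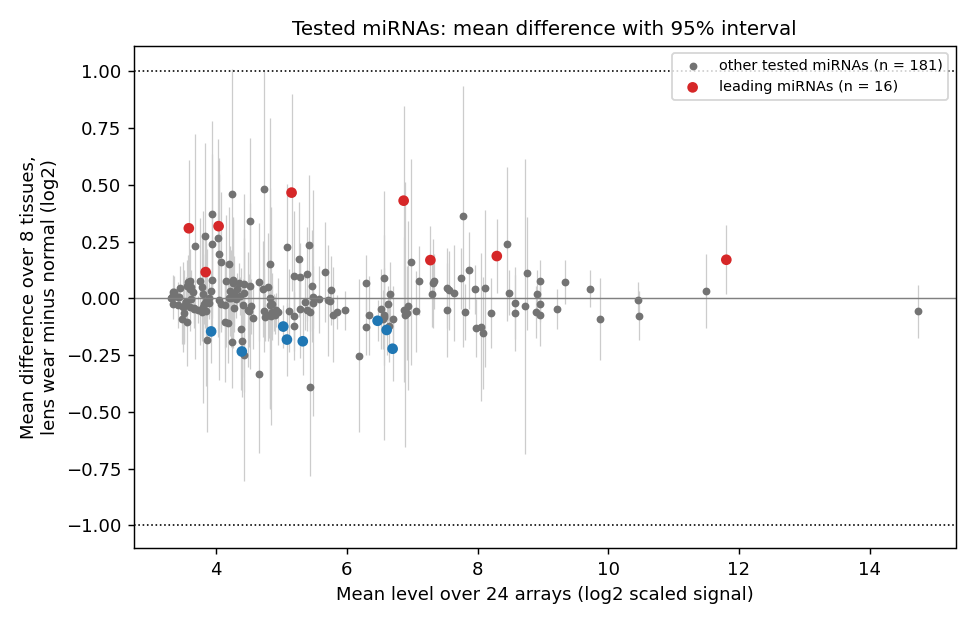
Mean difference over 8 tissues between lens wear and normal (log2) against the mean log2 scaled signal over 24 arrays, for the 197 tested miRNAs with 95% intervals. The 8 lower leading miRNAs are blue and the 8 higher ones red. All points lie between −0.39 and 0.48, inside the dotted lines at 2-fold.

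The eye and the brain samples were also set against each other. SCN and LGN differed from the 6 eye tissues in the size of the lens difference for 0 of 197 miRNAs (0%) at an adjusted p under 0.05 in limma, and for 8 (4.06%) at an unadjusted p under 0.05. The smallest adjusted p was 0.206. miR-34c-5p and miR-34b-5p, products of 1 transcript that are rich in ciliated cells, led this comparison. miR-34c-5p read 94.2 in the normal SCN, 73.8 with 0 D and 201 with −30 D, and 29.2, 34.2 and 86.4 in LGN. miR-34b-5p, with the sequence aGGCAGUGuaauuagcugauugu (chr9:51103610-51103632, minus strand), read 145, 114 and 347 in SCN and 56.4, 51.2 and 153 in LGN. In both regions the −30 D array stood above the normal and 0 D arrays. In the eye, where miR-34c-5p was above the floor in crystalline lens alone, it read 26.0, 25.0 and 25.0. The difference between brain and eye was 0.64 for each of the pair.

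A further 197 miRNAs were detected on 1 to 11 arrays and were not tested, and 1487 were detected on none. Over all 1881 miRNAs, both lens arrays detected a miRNA that the normal array did not in 45 cases, of which 17 were in cornea and 0 in retina. The reverse occurred in 64 cases, of which 24 were in sclera. No miRNA was gained or lost in more than 2 tissues. Gained in 2 were miR-2137, miR-1187, miR-7085-3p, miR-483-3p and miR-8095. Of these, miR-2137 was also lost in SCN and LGN, miR-1187 in LGN and miR-7085-3p in cornea. Most were dim, and the brightest of these 5 was miR-1187 with a scaled signal of 41.8. miR-183-5p was detected in the normal SCN and LGN and on no lens array of these regions, with a signal of 8.21 or less.

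The arrays differed in ways that follow the slides. The median local background was lower on both lens slides than on the normal slide in 8 of 8 tissues, with medians of 58 for normal, 54 for 0 D and 50 for −30 D. Each tissue always lay at the same position of its slide. An array detected 6.86% to 13.2% of the miRNAs, and the scaling moved signals by −1.01 to 1.65 on the log2 scale. The number of arrays limits the precision.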

How the data were processed

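Total RNA (100 ng per array) was hybridised to 24 one-colour arrays. The authors digitised the scans with Agilent Feature Extraction 10.7.1.1, and the deposited scanner files hold spot and probe intensity values after background subtraction. A deposited table of the series with 24 value columns was not used, since its column letters could not be assigned to samples.

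For each miRNA the total signals of its probes above 3 errors were summed, scaled, set to a common floor and log2-transformed as given above. miRNAs detected on at least 12 of 24 arrays were tested. Each contrast was fitted in limma 3.58.1 (R 4.3.3) on 8 within-tissue differences, with Benjamini-Hochberg adjustment over all miRNAs tested, so that the tissue is the block. miRNAs at the floor on all arrays of a contrast were left out of it. The fit was tested on simulated data. Tables and plots used Python 3.11.15, pandas 2.3.3 and matplotlib 3.10.9.

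Named miRNAs were those past a test, the 8 with the smallest p in each direction of lens wear against normal, and members of the lists. The members and lists were chosen with earlier results of these data known. miRNAs of eye against brain or of changed detection, miR-3082-5p, and members of lists with under 3 tested were named after their values were seen. Alternatives covered scaling, the floor, the detection filter, background correction, the summary of probes, the fit and each tissue left out. No spread between animals was measured.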

Additional observations from a re-analysis of the deposited data

Results flagged for a closer look

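In 22 groups of 8 tissue differences checked for a value far from the others, 2 had one, and chance gives about 1 in 20. The difference between lens wear and normal of miR-193a-3p in SCN was −0.54, far below its other tissues. That of miR-29b-3p in crystalline lens was 0.41, above its other tissues.

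For 6 miRNAs the effects of the −30 D and the 0 D lens differed by the direct test of that difference. The −30 D minus 0 D difference was −0.40 for miR-29b-3p, 0.35 for miR-5126, 0.43 for miR-8110, 0.23 for miR-151-5p, 0.35 for miR-3960 and 0.74 for miR-1224-5p. The effects of slide and lens power cannot be told apart in these values.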

How the results depend on the processing

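The count of miRNAs called for lens wear against normal was 0 in all 24 settings but scaling by the median of ratios, where it was 1, and no setting called a miRNA in both lens groups or with −30 D against normal. Leaving out a tissue gave 0 calls for lens wear, 0 to 2 for 0 D, 0 to 9 for −30 D minus 0 D and 0 to 4 for brain against eye. The 0 D count against normal was 14 without scaling (all higher, with the median of all differences moved to 0.17), 4 by the median of ratios, 2 with quantile normalization, 4 over miRNAs detected on all 24 arrays and 2 in a fit over all arrays. It was 0 with each array's own 75th percentile, the 75th percentile of all spots, undetected values at 0.1 or at the array's lowest signal, normexp, the printed total and without the tissue (replicate) block. For −30 D minus 0 D it was 36 without scaling (1 higher, 35 lower), 15 with normexp, 9 over miRNAs detected on all arrays, 1 with quantile normalization, filters of 6 or 1 arrays, the fit over all arrays or eye tissues only, and 0 with both other 75th percentiles, undetected values at 0.1 or the array's lowest signal, the printed total and no replicate block. It was 0 without cornea or without iris and 1 without SCN or without LGN. For brain against eye it was 1 without scaling, 1 by the median of ratios, 2 with quantile normalization, 6 with undetected values at 0.1, 1 with filters of 6 or 1 arrays and 4 without SCN.

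Some means changed sign. With the 75th percentile of all spots, miR-423-5p had 0.0922, miR-193b-3p 0.0580, miR-6368 0.17, miR-331-3p 0.16, miR-193a-3p 0.00826 and miR-210-3p 0.15. Without scaling miR-331-3p had 0.03, and miR-151-5p had −0.0013 for −30 D minus 0 D. With normexp miR-1a-3p had −0.0131 and miR-350-3p −0.0348. With the printed total, miR-30c-5p had −0.0298, miR-574-5p −0.24, miR-350-3p −0.21, miR-331-3p 0.27 and miR-29b-3p 0.12 for −30 D minus 0 D. That total differed by more than 1% from the sum of the probes for 52 to 96 detected miRNAs per array. The cause of the other changes was not tested. A slide block could not be fitted, since each slide holds 1 group, and the series table was not run. Dim miRNAs near the floor understate any difference.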
